A study of Mus musculus with 6 samples.

Results

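MHC class I presentation genes are described here in sorted mouse mammary basal cells of 2 genotypes. The set holds 10 listed genes: the class I heavy chains H2-K1 and H2-D1, their light chain B2m, the peptide transporter subunits Tap1 and Tap2, the loading factor Tapbp, the immunoproteasome subunits Psmb8, Psmb9 and Psmb10, and the transcriptional regulator Nlrc5. The genes were chosen by name and function, with earlier results of these data known. A gene was read from a probe set annotated to that gene alone, and from the brightest of these where there were several, which gave values for 9 of the 10 genes among 22180 genes in all. H2-D1 appears in the annotation only on a probe set that also lists H2-Q2, so no value is given for it.

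Basal cells, the outer layer of the mammary epithelium, came from virgin female mice aged 8 to 14 weeks. The 3 wild type arrays and the 3 knockout arrays each measured a separate biological replicate. The knockout mice were Trp53-/-, p16ink4a-/- and p19arf-/-, that is, without p53 and without both products of Cdkn2a, and the labels name no tissue-specific driver. Strain and the number of animals behind a replicate were not given in the sources used here, and all 6 samples passed the same digestion, bead depletion of blood and endothelial cells, and flow sort.

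Class I molecules display peptides from inside the cell to CD8 T cells. The proteasome cuts cytosolic proteins, the TAP transporter carries the peptides into the endoplasmic reticulum, tapasin holds empty class I chains beside TAP, and beta-2-microglobulin stabilises the loaded chain at the surface. Interferons raise most of these genes, exchange the catalytic subunits of the proteasome for Psmb8, Psmb9 and Psmb10, and induce Nlrc5, a protein that acts on class I promoters through a group of short elements called the SXY module.

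Promoters are shown first because several of these genes share this module or the stretch of DNA between their starts. RefSeq promoter windows of assembly GRCm38.p6, from 250 bases before to 50 after a start site, were found for 8 of the 10 genes, and Tap2 and Nlrc5 had no entry. Letters TGACG, 20 further bases and ATTGG, searched on both strands, occurred in B2m, H2-K1 and H2-D1 and in 0.0944% of 32851 windows. TGACG is the core of the X2 element, and ATTGG is the reverse complement of CCAAT, the Y box. The matches lie at chr2:122147609-122147638 on the plus strand, chr17:34000359-34000388 on the minus strand and chr17:35262993-35263022 on the plus strand, with the 2 motifs in capitals.
B2m: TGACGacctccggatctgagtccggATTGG
H2-K1: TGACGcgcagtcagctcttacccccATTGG
H2-D1: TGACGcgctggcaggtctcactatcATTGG
The heavy chains shared 23 of these 30 bases, and H2-K1 and B2m shared 13.

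The B2m promoter is shown because B2m was the gene whose groups separated. The 250 bases before its start, chr2:122147437-122147686 on the plus strand, are given with 3 kinds of match in capitals: the interferon-stimulated response element GAAANNGAAA, TGACG and ATTGG.
B2m upstream: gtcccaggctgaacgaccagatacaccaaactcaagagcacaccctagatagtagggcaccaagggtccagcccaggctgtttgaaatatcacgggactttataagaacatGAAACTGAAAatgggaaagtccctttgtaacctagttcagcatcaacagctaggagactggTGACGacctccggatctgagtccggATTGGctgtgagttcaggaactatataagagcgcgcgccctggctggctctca
GAAANNGAAA, which stood 139 bases before the B2m start, was found in 1 of the 8 genes and in 3.44% of all windows. Only this spelling was searched, so other forms of the element in the other genes were not looked for. TTCNNNGAA, the letters of the GAS element, was found in Psmb8, 97 bases before its start, and in 8.3% of windows. The kappaB letters GGGGANNNCC were found in H2-K1 and H2-D1 and in 5.73% of windows. Other spellings of the GAS and kappaB elements were not searched either, in B2m or in the other genes.

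Psmb9 and Tap1 lie head to head on chromosome 17, with Psmb8 and Tap2 next in the same run of genes. Their start sites are separated by 225 bases, chr17:34187331-34187555, shown on the plus strand from Psmb9 towards Tap1 because the order of the arrays was not the same for this pair. TGACG and CCAAT are in capitals.
Psmb9 to Tap1: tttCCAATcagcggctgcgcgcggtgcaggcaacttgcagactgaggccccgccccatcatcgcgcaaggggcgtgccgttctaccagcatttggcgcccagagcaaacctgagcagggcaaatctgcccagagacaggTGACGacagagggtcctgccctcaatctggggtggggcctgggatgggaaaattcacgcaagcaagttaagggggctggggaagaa
TGACG alone was found in 20.8% of all windows and CCAAT in 37.4%, on either strand, and a match is a description of the letters only.

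None of the 9 measured genes passed the test between genotypes. With limma, 0 of the 9 passed an adjusted p of 0.05, as did 0% of the 22180 genes, and the smallest adjusted p over all genes was 0.818. Log2 fold changes, knockout minus wild type, ran from -0.21 for Psmb9 to 0.40 for Tap1, with a median of 0.08 against -0.0067 over all genes. By sign, 7 of 9 were higher in the knockout, where 48.3% of all genes were. At an unadjusted limma p under 0.05 there was 1 of 9, B2m, against 3.32% of all genes, and in B2m alone every knockout array lay above every wild type array, which held for 3.63% of all genes. Without wild type replicate 1 the median was -0.04 and 4 of 9 were higher, and without wild type replicate 2 the median was 0.21 and 9 of 9 were higher. The direction of the set as a whole thus depended on which wild type array was left out.

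**Figure D1:**
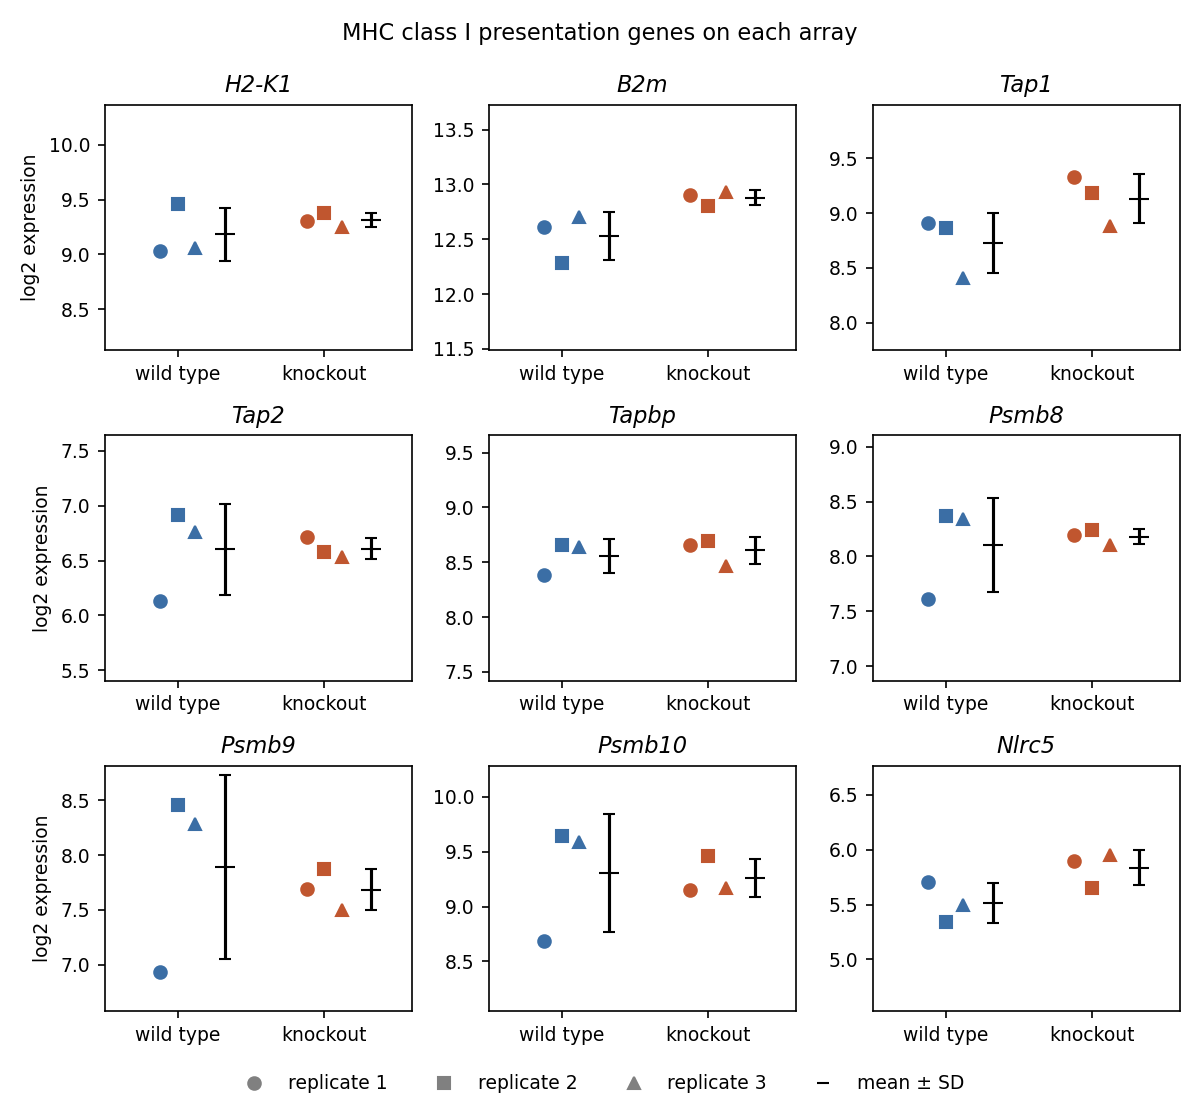
Deposited log2 expression of the 9 measured genes on each of the 6 arrays, with 1 panel per gene, all panels spanning the same height, 1 symbol per replicate and a black bar for the mean ± SD of 3 arrays. B2m is the gene whose groups do not overlap, and wild type replicate 1 is the lowest point for H2-K1, Tap2, Tapbp, Psmb8, Psmb9 and Psmb10.

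B2m, the light chain shared by all classical class I molecules, read 12.61, 12.29 and 12.70 on the log2 scale on the wild type arrays, in replicate order. The knockout arrays read 12.90, 12.80 and 12.93. All knockout arrays were above all wild type arrays, and the lowest array was wild type replicate 2. The log2 fold change was 0.34 ± 0.12 (SE), with a 95% interval from 0.07 to 0.62, and the ratio was 1.27. It was 0.22 without wild type replicate 2. The difference did not pass over all genes (limma adjusted p = 1.0, unadjusted p = 0.0184).

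H2-K1, the classical heavy chain that binds peptide, read 9.03, 9.46 and 9.06 in wild type and 9.31, 9.38 and 9.25 in knockout cells. All knockout arrays lay within the wild type range, below wild type replicate 2 and above the other two. The log2 fold change was 0.13 ± 0.17 (SE; limma adjusted p = 1.0), and the interval from -0.25 to 0.51 leaves room for a change of either sign. Without wild type replicate 2 the value was 0.27, and without wild type replicate 1 it was 0.05. Heavy chains are close paralogs, so a probe of one can also read others, and which chains these probes read was not tested.

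Nlrc5, the class I transactivator, read 5.70, 5.34 and 5.50 in wild type and 5.90, 5.65 and 5.96 in knockout cells. Only knockout replicate 2 fell inside the wild type range, just under wild type replicate 1. The log2 fold change was 0.32 ± 0.16 (SE), with an interval from -0.04 to 0.68 (limma adjusted p = 1.0).

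Tap1, which forms the peptide transporter with Tap2, read 8.91, 8.86 and 8.41 in wild type and 9.33, 9.18 and 8.89 in knockout cells. Replicate 3 was the lowest in each genotype, and the groups overlapped because knockout replicate 3 lay just under wild type replicate 1. The log2 fold change was 0.40 ± 0.20 (SE), with an interval from -0.04 to 0.85 (limma adjusted p = 1.0), and it was 0.25 without wild type replicate 3. Arrays of the same replicate number differed by 0.42, 0.32 and 0.47.

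Tap2, the partner of Tap1, read 6.13, 6.92 and 6.76 in wild type and 6.72, 6.58 and 6.53 in knockout cells, so every knockout array lay inside the wild type range. The log2 fold change was 0.01 ± 0.22 (SE), and the interval ran from -0.49 to 0.50. Leaving out wild type replicate 1 gave -0.23 and leaving out knockout replicate 1 gave -0.05, against 0.16 when wild type replicate 2 was left out.

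Tapbp encodes tapasin, which bridges the transporter and the heavy chain. It read 8.38, 8.65 and 8.64 in wild type and 8.66, 8.70 and 8.46 in knockout cells, with overlapping groups. The log2 fold change was 0.05 ± 0.16 (SE), with an interval from -0.32 to 0.42. A second, dimmer probe set of the gene gave -0.08, and the main value was -0.04 without wild type replicate 1, so the direction was not settled.

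The immunoproteasome subunits varied more among wild type arrays than between genotypes. Psmb8, the beta5i subunit, read 7.61, 8.37 and 8.34 in wild type and 8.19, 8.24 and 8.11 in knockout cells. Psmb9, the beta1i subunit, read 6.93, 8.46 and 8.28 in wild type and 7.69, 7.87 and 7.50 in knockout cells. Psmb10, the beta2i subunit, read 8.68, 9.65 and 9.59 in wild type and 9.15, 9.46 and 9.17 in knockout cells. In each of the 3 genes wild type replicate 1 was the lowest array, wild type replicates 2 and 3 were the highest, and every knockout array lay between.

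Their log2 fold changes were 0.08 with a standard error of 0.22 for Psmb8, -0.21 with 0.36 for Psmb9 and -0.05 with 0.26 for Psmb10. None passed (limma adjusted p = 1.0 for each), and the interval of Psmb9 ran from -1.03 to 0.61. Without wild type replicate 1 the values were -0.17, -0.69 and -0.36, and without wild type replicate 2 they were 0.21, 0.08 and 0.13. The sign of Psmb8 thus turned without wild type replicate 1 and that of Psmb9 without wild type replicate 2. Psmb10 was also above 0 without wild type replicate 3, at 0.10, and close to 0 without knockout replicate 1 or 3.

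**Figure D2:**
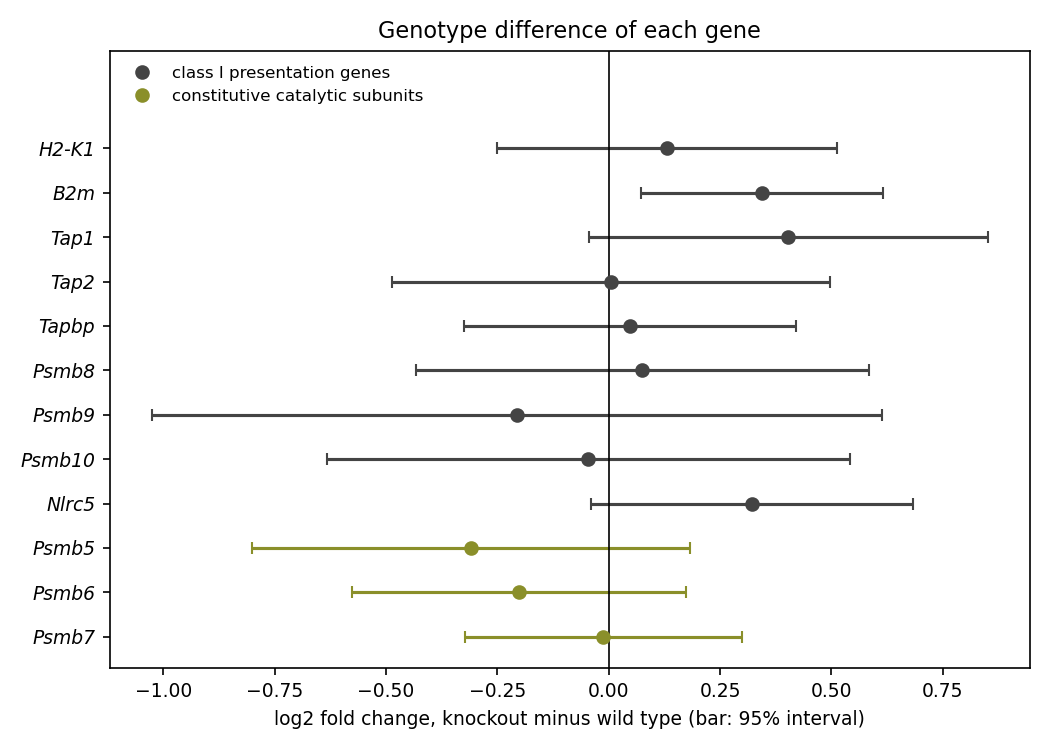
Log2 fold change, knockout minus wild type, of the 9 measured class I presentation genes and of the constitutive subunits Psmb5, Psmb6 and Psmb7, with bars for the 95% interval of the limma fit. The interval lies above 0 for B2m, from 0.07 to 0.62, and includes 0 for the other 8 genes and for the 3 constitutive subunits.

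Psmb9 and Tap1, which start 225 bases apart, did not follow the same order of arrays. Same-numbered arrays differed by 0.75, -0.59 and -0.78 for Psmb9, against the 3 positive differences of Tap1. All 3 same-numbered differences were positive in 3 of the 9 genes, B2m, Tap1 and Nlrc5, and in 11.5% of all genes. No label says what a replicate number shares.

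The wild type arrays spread more than the knockout arrays in all 9 genes by their SD, where 61.5% of all genes showed that order. For Psmb9 the SD was 0.83 in wild type and 0.19 in knockout cells (n = 3 each), and for Psmb8 it was 0.43 and 0.07. Wild type replicate 1 was the lowest of the 6 arrays in 6 of the 9 genes, against 15.2% of all genes. With n = 3 these are descriptions, and the spreads were not compared by a test.

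Markers of luminal cells, the inner epithelial layer that a basal sort can carry over, followed a partly like order of arrays. Their mean was low on wild type replicate 1 and highest on wild type replicates 2 and 3, but slightly lower still on knockout replicate 3. Of 18 listed luminal markers 17 were measured, 16 of them lower in the knockout, and their mean level was 7.67, 8.82 and 8.50 in wild type and 8.02, 8.16 and 7.66 in knockout cells, in replicate order. That luminal mean differed between same-numbered arrays by 0.35, -0.66 and -0.84, and the mean of Psmb8, Psmb9 and Psmb10 by 0.60, -0.30 and -0.48. The mean of 16 constitutive proteasome genes, described below, also had wild type replicate 1 lowest and every knockout array between it and the other wild type arrays. It read 9.55, 9.95 and 9.88 in wild type and 9.68, 9.69 and 9.78 in knockout cells. The luminal keratin Krt8 read 11.01 on wild type replicate 1 and 11.86 and 11.78 on the other wild type arrays. In Epcam, Kit and Elf5 wild type replicate 1 was not the lowest wild type array. On the wild type arrays Epcam read 9.17, 9.05 and 9.37, Kit 7.24, 8.53 and 7.22, and Elf5 4.79, 4.81 and 4.63. The part of luminal cells in the immunoproteasome values was not tested. In such bulk samples fewer cells of a type and less RNA per cell cannot be told apart.

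**Figure D3:**
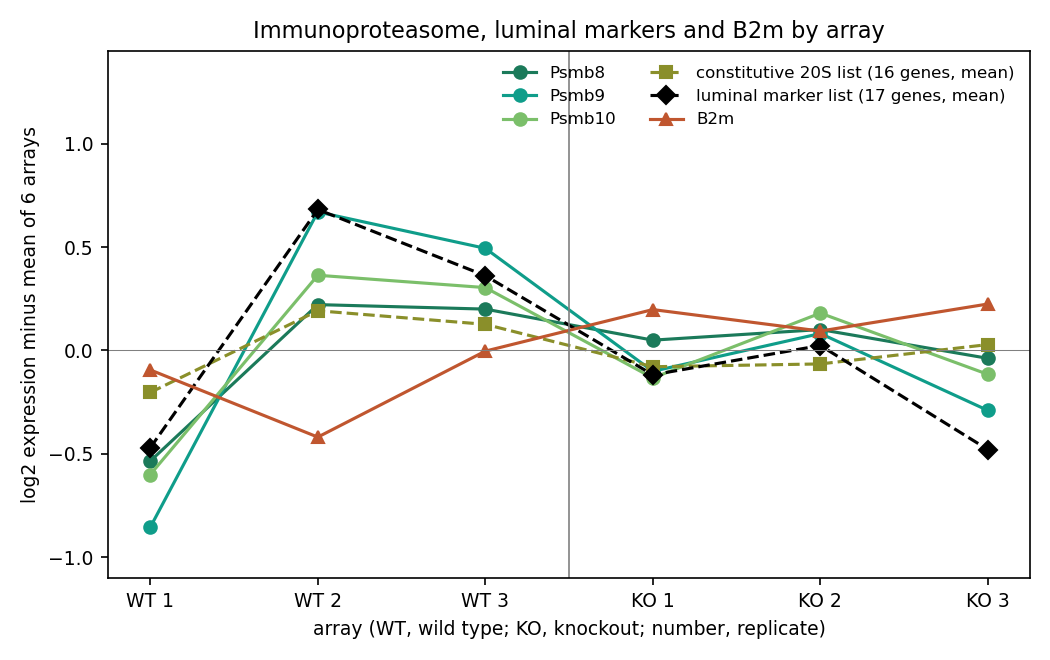
Log2 expression minus the mean of the 6 arrays for Psmb8, Psmb9, Psmb10 and B2m and for the mean of the luminal marker list and of the constitutive proteasome list. The lines only join points of one gene or list, since replicates have no order. The 3 immunoproteasome subunits, the luminal mean and the constitutive proteasome mean are low on wild type replicate 1 and high on wild type replicates 2 and 3. The luminal mean is lowest on knockout replicate 3, and B2m is lowest on wild type replicate 2.

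Constitutive proteasome genes had values mostly below 0. Of 17 listed genes of the constitutive core particle and its assembly, 16 were measured, with 3 higher, 13 lower and 0 past the threshold, and a median log2 fold change of -0.08. Psmb3, of smallest p in this list, had -0.28, with every knockout array below every wild type array. Psmb5, the subunit that Psmb8 replaces, read 11.12, 12.04 and 11.90 in wild type and 11.35, 11.43 and 11.35 in knockout cells. That is a log2 fold change of -0.31 ± 0.22 (SE). Psmb6, replaced by Psmb9, had -0.20 with 0.17, and Psmb7, replaced by Psmb10, had -0.01 with 0.14. Psmb5 and Psmb6 shared the low wild type replicate 1, and Psmb7 did not, with 10.66 there against 10.52 and 10.59. The proteasome activators Psme1 and Psme2, which form the PA28 cap, had log2 fold changes of -0.01 and -0.04.

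Genes for trimming and loading peptides had 7 of 21 measured members higher and 14 lower, with a median of -0.03 and 0 past the threshold. The 4 of smallest p were Blmh, a cytosolic peptidase, at -0.32, Nrd1, a metalloprotease, at -0.30, Derl1, of the degradation pathway of the endoplasmic reticulum, at -0.34, and the chaperone Calr at 0.23. For Blmh every knockout array lay below every wild type array, as in 4.05% of all genes.

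Of 24 further class I and class I-like heavy chains 15 had a probe set of their own, with 8 higher, 7 lower, a median of 0.03 and 0 past the threshold. H2-Q5 read 5.87, 6.08 and 5.64 in wild type and 6.64, 6.12 and 7.15 in knockout cells. That is a log2 fold change of 0.77 ± 0.26 (SE; limma adjusted p = 1.0). All its knockout arrays were above the wild type arrays, with knockout replicate 2 only just above wild type replicate 2. H2-Q10 followed with 0.59 and a standard error of 0.29, with overlapping groups, then H2-M2 with 0.26 and H2-Q1 with -0.26. As for H2-K1, signal from related chains in these probe sets was not tested.

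Genes upstream of class I expression had more values above than below 0, with 0 past the threshold. Of 28 listed regulators 25 were measured, 16 higher and 9 lower, with a median of 0.07, where 48.3% of all genes were higher. The list mixes activators with inhibitors, so the count gives no direction for class I expression. Irf1, a transcription factor that binds class I promoters, read 6.80, 6.89 and 6.17 in wild type and 7.32, 8.27 and 6.72 in knockout cells. Its log2 fold change was 0.82 ± 0.37 (SE; limma adjusted p = 1.0), and knockout replicate 3 lay inside the wild type range. Irf9, the DNA-binding part of the interferon-activated ISGF3 complex, had 0.42, and Socs3, a feedback inhibitor of cytokine receptors, 0.59, each highest on knockout replicate 2. Rfxap, a subunit of the factor that binds the X element, had 0.25.

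Interferon-stimulated genes, from a list on which higher values in the knockout were already known, had a median log2 fold change of 0.65, beside 0.08 for the class I presentation genes. Of 20 measured, 18 were higher in the knockout, 13 at an unadjusted limma p under 0.05, against 1.61% of all genes higher at that p, and 0 past the adjusted threshold. The mean level of the list was 6.44 to 6.55 in wild type and 6.94 to 7.30 in knockout cells. The 4 of smallest p were Rtp4 at 1.46, Gbp7 at 0.94, Ifit1 at 1.82 and Xaf1 at 1.14. Log2 fold changes ran down to -0.17 for Mx1, and Ifit2, Oas3, Ifit3, Oas2 and Bst2 also lay within the range of the class I presentation genes, at -0.02 to 0.34. Of the 20 genes 17 had a mean level of 5 or over. Mx1, Ifit2 and Oas2 did not, and Oas3, Ifit3 and Bst2 did. The part of low signal in the small differences was not tested. Whether the 2 lists differ was not tested, and they share the same arrays. The interferon genes themselves had 5 of 9 higher and a median of 0.07, with Ifng at -0.37 and Ifnb1 at 0.27. These are dim values: 4 of the 9 had a mean level of 5 or over. Ifng read 4.17 to 4.79 and Ifnb1 3.65 to 4.36 over the 6 arrays, and whether they were detected was not tested.

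Class II presentation genes, which serve CD4 T cells, had 8 of 11 measured members higher and a median of 0.16, with 0 past the threshold. Ctss, a protease of that pathway, had 0.71, H2-Ab1 had 0.64 and H2-DMa had -0.56. Ciita, the class II counterpart of Nlrc5, had 0.004 with a standard error of 0.18.

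**Figure D4:**
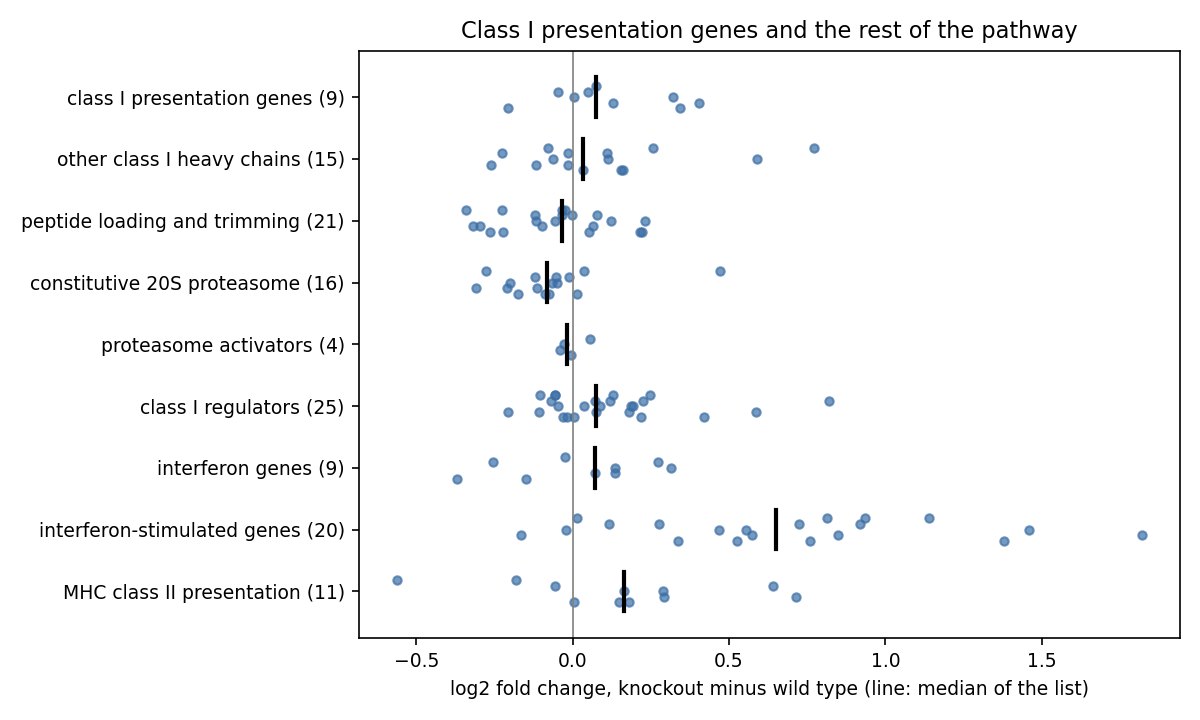
Log2 fold change, knockout minus wild type, of each measured gene of the class I presentation set and of 8 related lists, 1 point per gene and a black line at the median, with the number of genes in brackets. The class I presentation genes lie between -0.21 and 0.40, and the interferon-stimulated genes between -0.17 and 1.82.

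Markers of other cells were read on the same arrays because every nucleated cell carries class I molecules. Fibroblast markers had 8 of 10 higher in the knockout and a median log2 fold change of 0.13. Their list mean was 6.18 to 6.53 in wild type and 6.73 to 6.90 in knockout cells. By gene, only Dpt and Lum, 2 of 10, had every knockout array above every wild type array, which held for 3.63% of all genes. Dpt, a matrix protein of fibroblasts, had a log2 fold change of 1.21, Lum, a proteoglycan, 1.28, the receptor Pdgfra 0.85 and Dcn, another proteoglycan, 0.54. The others lay between -0.20 for Fap, whose knockout arrays were all below the wild type arrays, and 0.14 for Col3a1. The part of such cells in the B2m, Tap1 and Nlrc5 values was not tested. Of 30 immune markers 29 were measured, 15 higher and 14 lower, and their mean ran from 5.09 to 5.25 in wild type and from 5.09 to 5.26 in knockout cells. That mean pools several cell types, and 17 of the 29 had a mean level of 5 or over. Every knockout array lay above every wild type array in 2, Cd68 at 0.36 and C1qc at 0.27, and below in 1, Ms4a1 at -0.22. Over all genes these shares were 3.63% and 4.05%. Ptprc, which encodes CD45, a target of the depletion beads, read 3.28 to 3.43 in wild type and 3.35 to 3.75 in knockout cells. Endothelial markers had 6 of 12 higher.

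Of the basal markers Krt14 read 13.21 to 13.51 over the 6 arrays, and the mean of 15 lay between 10.36 and 10.69. The luminal keratin Krt8 read 11.01 to 11.86 on the same arrays. All samples were basal sorts, so the purity of the sort was not tested. Krt5 had no probe set of its own. Cdkn2a probe signal was 5.84 to 6.48 in wild type and 6.25 to 6.39 in knockout cells, but no source used here places its probes inside or outside the deletion. Trp53 was not analysed here, and the genotype labels were therefore not checked by a targeted gene. All arrays held different values, and array medians lay between 5.22 and 5.39.

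Genes whose pattern over the 6 arrays was most like the mean of the 9 class I genes, each centred on its own mean, were Mettl7a1, with a Pearson correlation of 0.997, Mat2b with 0.995, Mtpap with 0.987, Ttc26 with 0.983 and Dnajc16 with 0.982. These are the highest among genes with an assigned name over n = 6 arrays, which share the low wild type replicate 1, and the values are a description. Mettl7a1 read 6.40 on that array and 7.32 to 7.81 on the others.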

How the data were processed

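The authors' deposited table holds log2 expression values per probe set of a whole-transcript array, made with RMA, with Transcriptome Analysis Console 4.0 also named, per the submitters' processing notes. RMA subtracts background, gives all arrays one distribution and combines the probes of a set, steps that can shrink differences of dim probe sets. Of 41345 rows, 23521 had 1 gene symbol, 1814 several and 16010 none here, and the row of highest mean was kept for the 1082 genes with more than 1 row.

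A linear model of genotype was fitted with limma 3.58.1 (R 4.3.3; lmFit, then eBayes with trend), and two-sided p-values were adjusted by Benjamini-Hochberg over all 22180 genes, with 0.05 as the threshold. Fold changes are differences of log2 values. Replicates are labelled biological, and p-values set the genotype difference against the spread between these samples, moderated over all genes. An array has no read depth, and 3 arrays per genotype limit the precision. On simulated arrays of the 22180 genes, with 200 changed genes in each of 20 runs, the fit recovered 3.2% of genes changed by 0.5 on the log2 scale, 49.4% at 1 and 90.5% at 2. A mean of 5.15 unchanged genes per run also passed. Noise was drawn independently for each gene and array. Deviations that many genes share on an array were thus not simulated, and recovery on the real arrays can differ.

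Genotypes share replicate numbers in the labels. Deviations from group means correlated by 0.121, 0.25 and 0.127 between same-numbered arrays, across genes, and wild type replicate 1 by 0.13 with knockout replicate 3. Numbers were treated as possible pairs, and a fit with replicate as a block was an alternative.

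Of 236 list entries 213 were measured, 1 through an older symbol. All measured members were named. In other lists the rule allowed, without requiring, naming any of the 4 genes of smallest p, Psmb5 to Psmb7 and Irf1. Ends of a range and the other interferon-stimulated genes within the class I range were named after their values were seen, as were Epcam, Kit and Elf5. One listed gene is not reported here. Krt8, Krt14, Ptprc, Ciita and Cdkn2a were named for their role. The 5 genes most like the members were taken by correlation over the arrays, without predicted genes. Members, lists and motifs were chosen with earlier results of these data known. Promoters are RefSeq sequences of GRCm38.p6, and the build behind the array annotation is not given in the sources used here. Figures were drawn with matplotlib 3.10.9.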

Additional observations from a re-analysis of the deposited data

Results flagged for a closer look

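Probe sets listed for several class I heavy chains were left out of the comparisons, and 2 of the 6 had every knockout array above every wild type array, as did 5.02% of the 1814 probe sets with several symbols. A probe set listed for H2-Q6 and H2-Q8 read 9.28, 8.80 and 9.06 in wild type and 9.97, 9.29 and 9.88 in knockout cells, a difference of 0.664. Another, listed for H2-Q7, H2-Q8 and H2-Q9, read 11.39, 11.50 and 11.26 in wild type and 11.58, 11.58 and 11.63 in knockout cells, a difference of 0.213. Which of the listed genes gave the signal cannot be told apart, and neither difference was tested.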

How the results depend on the processing

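Under the 15 alternatives, 0 genes passed in either direction and 0 of the 9 class I genes passed. B2m, Tap1, Nlrc5 and H2-K1 kept their sign under all 15, with log2 fold changes of 0.22 to 0.43, 0.25 to 0.61, 0.23 to 0.42 and 0.05 to 0.27. With array weights Tap2 was -0.0199 and Psmb8 -0.0194, with median centring Tap2 was -1.17e-05, and with the mean of a gene's rows Tapbp was -0.0169. Leaving out 1 array in turn, the count of genes higher ran from 4 to 9, the median from -0.0402 to 0.205, Tap2 from -0.229 to 0.163, Tapbp from -0.0402 to 0.119, Psmb8 from -0.173 to 0.205, Psmb9 from -0.685 to 0.0775 and Psmb10 from -0.357 to 0.125. Genes whose knockout arrays all lay above the wild type arrays then numbered 1 to 3 of 9, with fewer arrays to separate. Over all genes the share was then 6.56% to 11.8%. The count was 3 of 9 without wild type replicate 1, at a share of 11.8%, and without knockout replicate 3, at 8.01%. With replicate as a block B2m had an adjusted p of 0.833 and Tap1 of 0.942 (limma), and the block changed no call. Genes at an unadjusted p under 0.05 were 357 higher and 379 lower, 527 and 585 with the block, and 926 and 1044 with array weights. The Cdkn2a deletion, the strain and luminal carry-over were not checked by any alternative.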

Other observations

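The probe set that the annotation lists for both H2-D1 and H2-Q2, which by the rule stands for neither gene, read 6.92, 7.05 and 6.72 in wild type and 7.18, 6.98 and 6.98 in knockout cells. The groups overlapped, and the means differed by 0.15.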
